A study of Homo sapiens with 2 samples.

Results

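The genes described here make fatty acids and triglycerides and store them in lipid droplets. They number 43 and were chosen by name, with earlier results of these data known. They are taken in the order in which carbon moves from citrate to the droplet. Of the 43, 40 were measured, of 19775 genes measured in all. In the liver, citrate carbon is turned into acetyl-CoA and malonyl-CoA, fatty acid synthase builds palmitate from these, and desaturases and elongases reshape it. Acyltransferases and phosphatases then join fatty acids to a glycerol backbone, and the triglyceride is kept in droplets coated by perilipins until lipases release it. Transcription of the synthetic enzymes is driven by SREBP-1, the product of SREBF1, and by ChREBP, the product of MLXIPL.

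The CD24 shRNA culture consisted of Huh7 cells, an established human hepatocellular carcinoma line, stably transduced by lentivirus with a short hairpin RNA against CD24, a small glycoprotein of the cell surface. The control culture (NTC) was made from the same line in the same way with a non-target hairpin. Both grew in DMEM with fetal bovine serum, penicillin and streptomycin, and the total RNA of either culture was measured on 1 Affymetrix array. The labels do not say whether either culture was a clone or a mixed population.

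Each group held 1 array, which limits the precision: differences could not be checked between replicates and no test was possible. The deposited log2 values had been centred within probe sets. The 2 arrays therefore carry values of equal size and opposite sign, and no level is in the table. Values below are log2 differences, CD24 shRNA minus control, unless called centred. A gene was summarised by its mean over probe sets that name that gene alone, and the SD is over those probe sets. It covers disagreement between probe sets and leaves out the spread between cultures. Pooled over 10523 genes with several probe sets, this SD was 0.27. The digits of some values show that the dimmer array had a level below 4 on the log2 scale, which is dim for these arrays, and such probe sets are described as placed below 4. CD24 itself had a mean centred value of -0.68 in the CD24 shRNA array and 0.68 in the control array, a difference of -1.37 ± 0.38 (SD, 6 probe sets). All 6 have the suffix _s_at or _x_at and can detect several transcripts, so CD24 has no value without such probe sets.

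Most enzymes that make fatty acids and assemble triglyceride were lower in the CD24 shRNA array, whereas the droplet coat proteins and most lipases lay close to 0. Of the 40 measured genes, 24 had a value below 0, which is 60.0%, against 47.5% of all genes, and 16 a value above 0, against 49.4% of all genes. The median was -0.13 over the 40 genes and 0 over all genes. Because the genes were chosen with earlier results of these data known, these shares are no test. At least 1.5-fold lower were 4 genes, or 10.0%, against 2.38% of all genes, and these were PNPLA3, GPAM, ACSS2 and MLXIPL. PNPLA3, GPAM and ACSS2 were also at least 2-fold lower, against 0.485% of all genes. MGLL was the 1 gene at least 1.5-fold higher (2.63% of all genes), and 0 were at least 2-fold higher (0.632% of all genes). At a threshold of 3-fold 0 genes were lower (0.086% of all genes) and 0 higher (0.162% of all genes). In bulk RNA, fewer cells of a kind and less RNA per cell cannot be told apart.

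**Figure D1:**
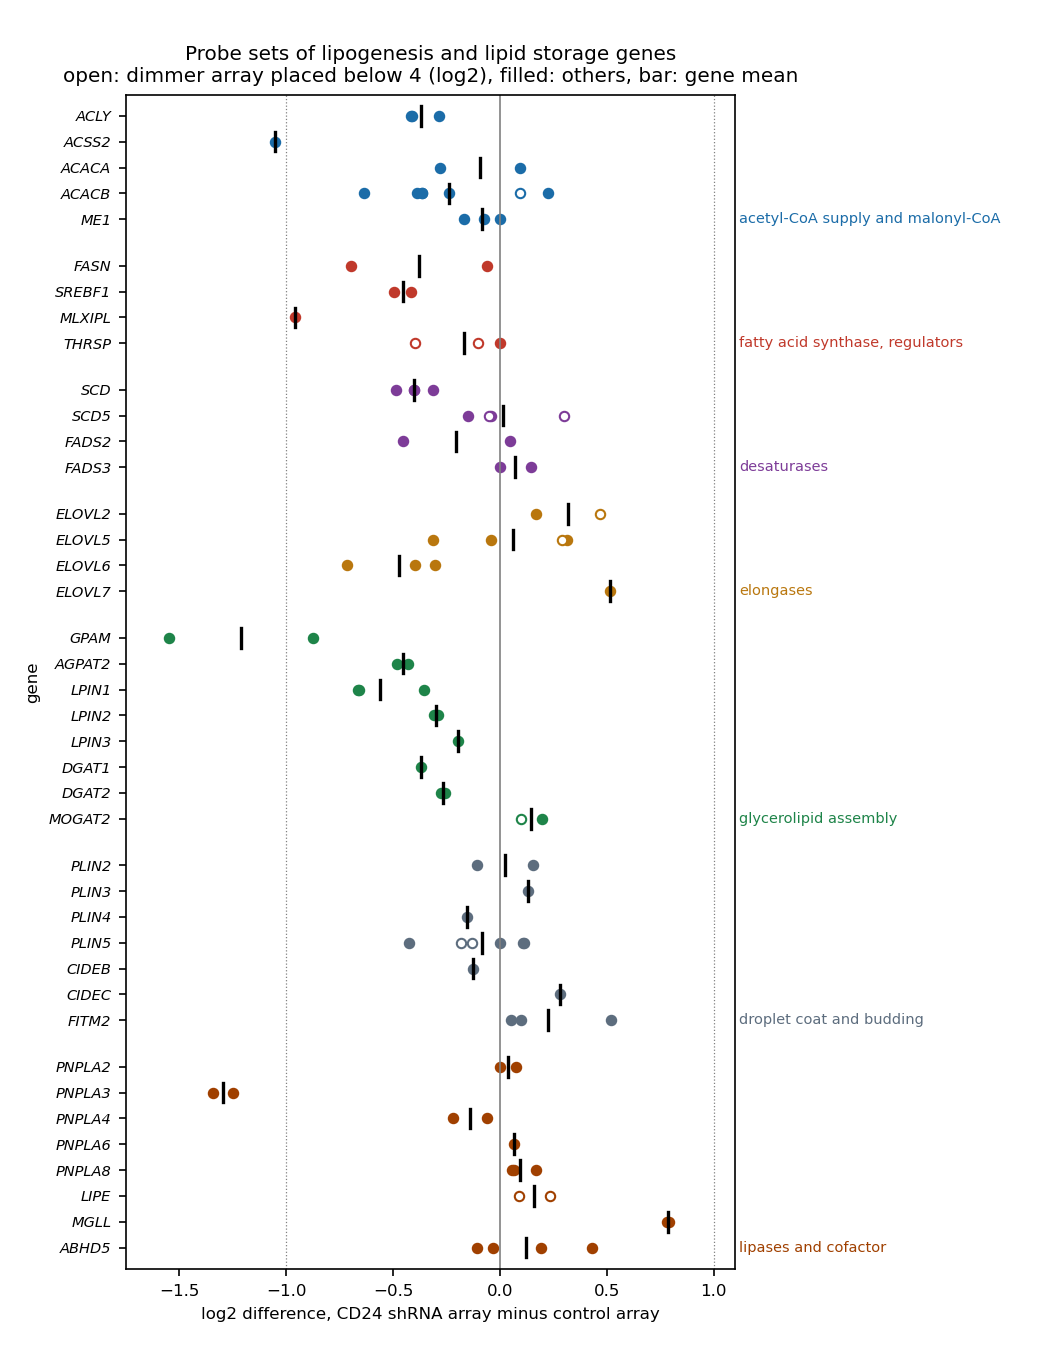
Log2 difference (CD24 shRNA minus control, horizontal axis) of all 94 probe sets of the 40 measured genes, 1 row per gene, grouped and coloured by role. Points are probe sets, open where the dimmer array was placed below 4 on the log2 scale (12 probe sets), black bars are gene means, and dotted lines mark a 2-fold difference. PNPLA3, GPAM and ACSS2 have means left of the lower dotted line, and no gene has a probe set beyond the upper one.

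The genes were also split into synthesis and storage, after their values had been seen. Of 25 measured genes of synthesis and assembly, 19 lay below 0, with a median of -0.27. Of 15 genes of droplet coats and lipases, 5 lay below 0, with a median of 0.07. Over all genes 47.5% lay below 0, with a median of 0. Scaling the arrays on their 18 hybridisation control probe sets adds 0.11 to every difference and to the median of all genes. On that scale 28.6% of all genes lay below 0. Of the synthesis and assembly genes 17 of 25 did (median -0.16), and of the droplet and lipase genes 4 of 15 (median 0.18), a share close to that of all genes. ACACA, ME1 and PLIN5 crossed to the other side of 0. Probe sets with the suffix _s_at or _x_at can detect several transcripts and are called multi-transcript probe sets here. Without them the synthesis median was -0.09 over the 17 genes left, 12 of them below 0, against 47.7% of all genes in that setting, and ACSS2, MLXIPL, ACLY, FASN, SCD, DGAT1 and DGAT2 were among those lost.

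**Figure D2:**
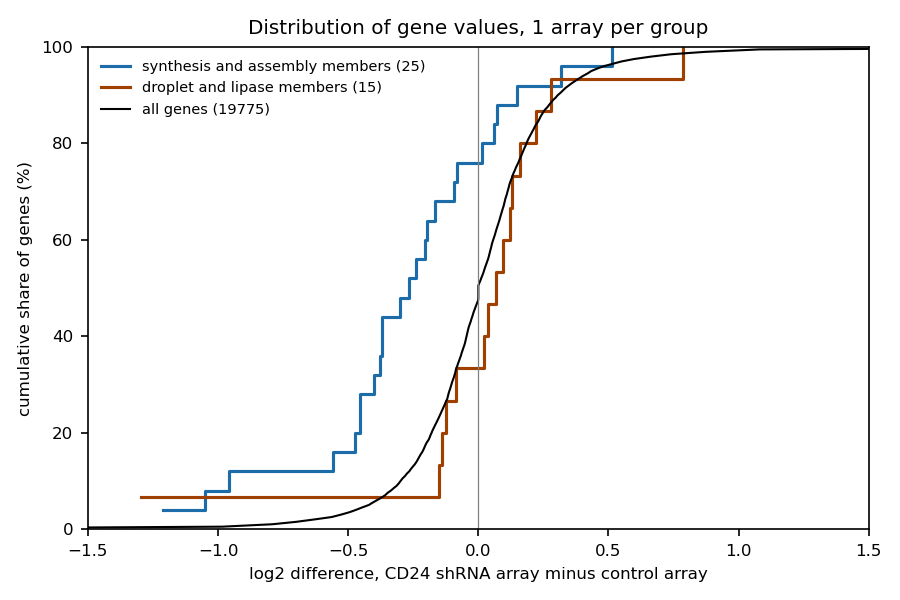
Cumulative share of genes (vertical axis, %) by gene value (horizontal axis, log2 difference, CD24 shRNA minus control) for 25 synthesis and assembly genes, 15 droplet and lipase genes, and all 19775 genes. The synthesis curve lies left of the curve of all genes over most of the range, with a median of -0.27. Of the droplet and lipase genes 33.3% lie below 0, against 47.5% of all genes. PNPLA3 and MGLL are the ends of that curve.

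All 5 genes that supply acetyl-CoA, malonyl-CoA or NADPH had means below 0, against 47.5% of all genes. However, ACACA and ME1 lay above 0 on the scale of the hybridisation controls. ACSS2, the cytosolic synthetase that makes acetyl-CoA from acetate, had a centred value of -0.53 in the CD24 shRNA array and 0.53 in the control array. It was 2.07-fold lower (log2 difference -1.05, 1 probe set), with 80 of 19775 genes further down. ACLY, which cleaves citrate to acetyl-CoA, had centred values of -0.21, -0.14 and -0.20 in the CD24 shRNA array and 0.21, 0.14 and 0.20 in the control array. Its 3 probe sets agreed on a difference of -0.37 ± 0.07 (SD), a 1.29-fold lower signal.

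The acetyl-CoA carboxylases, which commit carbon to fatty acid synthesis, gave no uniform reading. ACACA, the cytosolic form, had centred values of -0.14 and 0.05 in the CD24 shRNA array, against 0.14 and -0.05 in the control array, and its mean of -0.09 ± 0.26 (SD, 2 probe sets) was smaller than the spread. ACACB, whose product sits at mitochondria, lay at -0.24 ± 0.30 (SD, 7 probe sets), with 5 probe sets below 0 and 2 above, from -0.64 to 0.22. ME1, the malic enzyme that supplies NADPH, lay at -0.08 ± 0.09 (SD, 3 probe sets).

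Fatty acid synthase and the transcriptional regulators were all below 0 (4 of 4 genes, against 47.5% of all genes). MLXIPL, which encodes the glucose-responsive factor ChREBP, had a centred value of -0.48 in the CD24 shRNA array and 0.48 in the control array and was 1.94-fold lower (-0.96, 1 probe set). SREBF1 had centred values of -0.21 and -0.25 in the CD24 shRNA array and 0.21 and 0.25 in the control array, and was 1.37-fold lower with close agreement (-0.45 ± 0.06, SD, 2 probe sets). FASN, the synthase itself, split by probe set.

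One FASN probe set had -0.35 in the CD24 shRNA array and 0.35 in the control array, a difference of -0.69. The other had -0.03 in the CD24 shRNA array and 0.03 in the control array, a difference of -0.06, so the mean of -0.38 ± 0.45 (SD, 2 probe sets) does not exceed the spread. Both FASN probe sets are multi-transcript probe sets. THRSP, a lipogenic protein of liver and fat, lay at -0.17 ± 0.21 (SD, 3 probe sets). On 2 of these the dimmer array was placed below 4, and the third was tied between the arrays.

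Among desaturases, SCD, which makes oleate from stearate, was lower on every probe set. Its 4 probe sets had centred values between -0.24 and -0.16 in the CD24 shRNA array and between 0.16 and 0.24 in the control array. The mean difference was -0.40 ± 0.07 (SD, 4 probe sets), a 1.32-fold lower signal. SCD5, a paralogue, lay at 0.01 ± 0.20 (SD, 4 probe sets), with 3 probe sets below 0 and 1 above.

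FADS1, FADS2 and FADS3, the front-end desaturase genes, are consecutive protein-coding genes on chromosome 11. FADS2, the first desaturase of polyunsaturated fatty acid synthesis, lay at -0.20 ± 0.36 (SD, 2 probe sets), with 1 probe set at -0.46 and the other at 0.05. FADS3 lay at 0.07 ± 0.10 (SD, 2 probe sets). FADS1, the desaturase that yields arachidonate, had no probe set of its own. The annotation gives 3 probe sets to FADS1 together with MIR1908, and these had centred values of -0.32, -0.52 and -0.42 in the CD24 shRNA array and 0.32, 0.52 and 0.42 in the control array. Their differences were -0.64, -1.05 and -0.84, and the transcript behind them was not assigned to either gene in the counts given here. An alternative counted these probe sets for FADS1, and those that ELOVL1 shares with a microRNA for ELOVL1. It gave 42 measured genes, with 25 below 0 (47.5% of all genes) and 5 at least 1.5-fold lower (2.38% of all genes).

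The elongases, which add carbon pairs to fatty acids, lay on both sides of 0, with 1 of 4 below it, against 47.5% of all genes. ELOVL6, which extends palmitate to stearate, was 1.39-fold lower (-0.47 ± 0.21, SD, 3 probe sets, from -0.71 to -0.31). ELOVL7, an elongase of saturated very long chains, was 1.43-fold higher (0.52, 1 probe set), and ELOVL2, an elongase of polyunsaturated chains, lay at 0.32 ± 0.21 (SD, 2 probe sets, 1 placed below 4). ELOVL5, which also extends polyunsaturated chains, had 2 probe sets on each side of 0 and a mean of 0.06 ± 0.30 (SD, 4 probe sets). Its mean was -0.015 without probe sets placed below 4. ELOVL1 shared both of its probe sets with MIR6734 in the annotation, and those lay at 0.09 and 0.04.

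In triglyceride assembly 7 of 8 measured genes lay below 0, against 47.5% of all genes, with a median of -0.34. GPAM, the mitochondrial acyltransferase that starts glycerolipid synthesis, had centred values of -0.77 and -0.44 in the CD24 shRNA array and 0.77 and 0.44 in the control array. It was 2.32-fold lower (-1.21 ± 0.48, SD, 2 probe sets), and 44 of 19775 genes lay further down. Neither GPAM probe set is a multi-transcript one.

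The steps after GPAM were shifted less. AGPAT2, which adds the second fatty acid, was 1.37-fold lower (-0.46 ± 0.04, SD, 2 probe sets). LPIN1, the phosphatidate phosphatase that is also a transcriptional coactivator, was 1.47-fold lower (-0.56 ± 0.18, SD, 3 probe sets), just short of 1.5-fold. Its paralogues LPIN2 and LPIN3 lay at -0.30 ± 0.01 (SD, 2 probe sets) and -0.20 (1 probe set). All 6 lipin probe sets were thus below 0.

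DGAT1 and DGAT2, unrelated enzymes that complete triglyceride, were both slightly lower. DGAT1 had a centred value of -0.19 in the CD24 shRNA array and 0.19 in the control array, a difference of -0.37 (1 probe set). DGAT2 had centred values of -0.14 and -0.13 in the CD24 shRNA array and 0.14 and 0.13 in the control array, a difference of -0.27 ± 0.01 (SD, 2 probe sets). MOGAT2, the intestinal monoacylglycerol acyltransferase, was the exception at 0.15 ± 0.07 (SD, 2 probe sets, 1 placed below 4). AGPAT3 was not analysed here.

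The droplet coat genes showed little difference. PLIN2, the main perilipin of hepatocyte droplets, had centred values of 0.08 and -0.05 in the CD24 shRNA array, against -0.08 and 0.05 in the control array. Its mean of 0.02 ± 0.18 (SD, 2 probe sets) did not exceed the spread. PLIN3 lay at 0.13 and PLIN4 at -0.15 (1 probe set each), and PLIN5, the perilipin of oxidative tissues, at -0.09 ± 0.21 (SD, 6 probe sets, 2 placed below 4).

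CIDEC, which drives droplet fusion, lay at 0.28 and CIDEB, its hepatocyte relative, at -0.12 (1 probe set each). FITM2, an endoplasmic reticulum protein needed for droplet budding, lay at 0.22 ± 0.26 (SD, 3 probe sets). Values of all 7 coat and budding genes ran from -0.15 to 0.28, within or barely past the pooled SD between probe sets.

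Of the lipases, PNPLA3 and MGLL differed most from 0, in opposite directions. PNPLA3, a lipid droplet protein of hepatocytes and a target of SREBP-1, had centred values of -0.62 and -0.67 in the CD24 shRNA array and 0.62 and 0.67 in the control array. It was 2.45-fold lower (-1.30 ± 0.07, SD, 2 probe sets), the lowest of the 40 genes, with 38 of 19775 genes further down. Its close relative PNPLA2, the adipose triglyceride lipase that opens triglyceride breakdown, lay at 0.04 ± 0.05 (SD, 2 probe sets), 1 of them tied between the arrays.

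MGLL, the monoacylglycerol lipase that completes lipolysis, had centred values of 0.39 and 0.40 in the CD24 shRNA array and -0.39 and -0.40 in the control array. It was 1.72-fold higher (0.79 ± 0.01, SD, 2 probe sets), and 260 of 19775 genes lay further up. LIPE, the hormone-sensitive lipase, lay at 0.16 ± 0.10 (SD, 2 probe sets), both placed below 4. ABHD5, the activator of PNPLA2, lay at 0.12 ± 0.24 (SD, 4 probe sets, 2 on each side of 0).

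The remaining patatin-like genes among the 43 were close to 0. PNPLA4 lay at -0.14 ± 0.11 (SD, 2 probe sets), PNPLA6, a lysophospholipase, at 0.07 (1 probe set), and PNPLA8, a phospholipase of membranes, at 0.10 ± 0.06 (SD, 3 probe sets). Other patatin-like genes, named after their values were seen, spread more widely. PNPLA5 was 1.34-fold lower (-0.42, 1 probe set, placed below 4) and PNPLA1 lay at 0.24 (1 probe set, placed below 4). PNPLA7 lay at 0.10 ± 0.14 (SD, 2 probe sets), 1 of them placed below 4 and the other tied between the arrays.

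Probe sets of a gene lay all on 1 side of 0 in 18 of the 30 genes with several probe sets, or 60.0%, against 39.9% of all genes with several. The SD over probe sets exceeded the pooled 0.27 in 5 genes, GPAM, FASN, FADS2, ACACB and ELOVL5. In GPAM both probe sets were far below 0, whereas in FASN and FADS2 1 probe set lay near 0. The 10 genes with 1 probe set, ACSS2 and MLXIPL among them, have no such check.

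**Figure D3:**
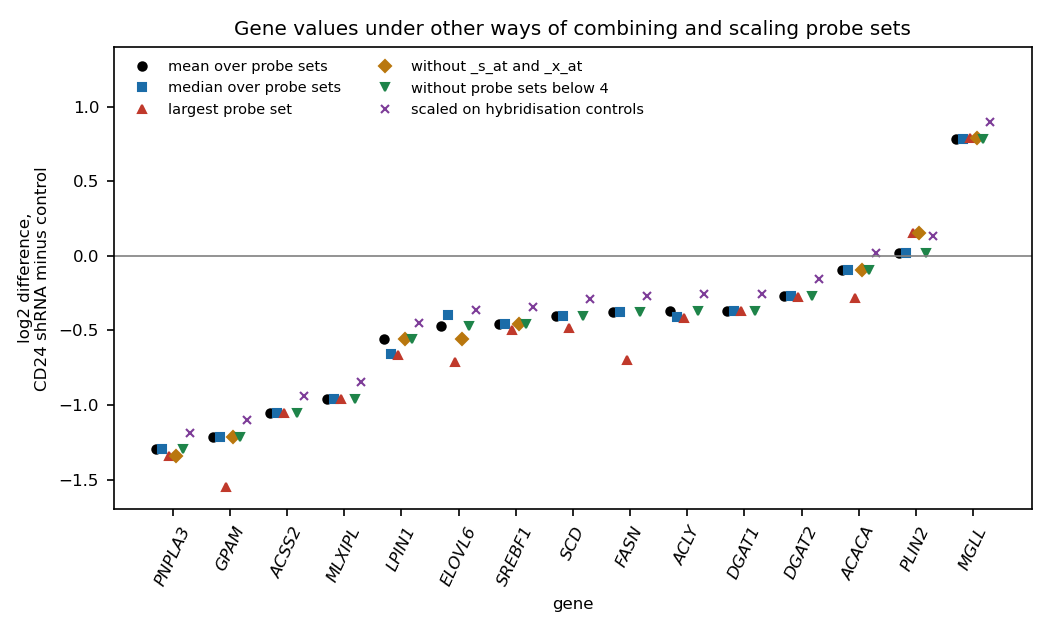
Log2 difference (CD24 shRNA minus control, vertical axis) of 15 genes, left to right from PNPLA3 to MGLL, under 6 ways of combining or scaling probe sets, marked by symbol and colour. Where a symbol is missing, the gene had no probe set left. PNPLA3, GPAM, ACSS2 and MLXIPL stay below -0.8 and MGLL above 0.7 in every setting drawn, while ACACA crosses 0 on the scale of the hybridisation controls.

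Genes known as targets of SREBP-1 made up 13 of the 24 genes below 0. The list, written after the values were seen, holds ACLY, ACSS2, ACACA, ACACB, FASN, SCD, ELOVL5, ELOVL6, FADS1, FADS2, ME1, GPAM, LPIN1, PNPLA3 and SREBF1. Of its 14 measured genes, 13 lay below 0, with a median of -0.39. Of the other 26 genes 11 did, with a median of 0.03, against 47.5% of all genes. This contrast is no test, since the list was chosen with the values known. On the scale of the hybridisation controls 11 of 14 lay below 0 (median -0.28) and 10 of the other 26 (median 0.14), against 28.6% of all genes. Without multi-transcript probe sets 9 of the 10 left lay below 0 (median -0.34) and 6 of 17 others (median 0.07), against 47.7% of all genes.

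Promoter letters were examined for those of the 43 genes that had promoter windows, whatever their values. RefSeq promoter windows on GRCh38.p14, covering 250 bases before and 50 after each annotated start, were found for 36 of the 43 genes, in 56 windows. PNPLA3, MGLL, FASN, DGAT1, DGAT2, LPIN3 and MOGAT2 had no entry. The windows were searched on both strands for TCACNCCAC (the core of a sterol regulatory element), CCAAT (the NF-Y box), GGGCGG (a GC box bound by Sp1) and CACGTG (an E-box). No overlap between different motifs occurs in the 6 windows shown. Each match is a description of letters and not a binding site.

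The windows of the 3 genes at least 1.5-fold lower that had an entry are shown first, followed by those of CIDEC and PNPLA2, the 2 genes with a sterol element core. Each gives the 250 bases before the start, 5′ to 3′ on the strand of the gene, with motif letters in capitals.
ACSS2, upstream start, chr20:34874739-34874988, plus strand: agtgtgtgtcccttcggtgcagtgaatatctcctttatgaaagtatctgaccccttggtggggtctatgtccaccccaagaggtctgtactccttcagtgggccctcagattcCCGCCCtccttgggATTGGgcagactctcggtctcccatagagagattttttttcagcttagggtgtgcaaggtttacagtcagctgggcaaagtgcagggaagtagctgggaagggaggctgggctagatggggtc
ACSS2, downstream start, chr20:34876362-34876611, plus strand: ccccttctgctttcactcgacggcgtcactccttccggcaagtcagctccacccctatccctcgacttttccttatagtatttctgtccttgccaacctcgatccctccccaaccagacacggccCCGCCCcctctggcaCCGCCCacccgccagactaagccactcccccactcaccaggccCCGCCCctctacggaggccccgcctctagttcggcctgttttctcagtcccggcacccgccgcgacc
MLXIPL, chr7:73624523-73624772, minus strand: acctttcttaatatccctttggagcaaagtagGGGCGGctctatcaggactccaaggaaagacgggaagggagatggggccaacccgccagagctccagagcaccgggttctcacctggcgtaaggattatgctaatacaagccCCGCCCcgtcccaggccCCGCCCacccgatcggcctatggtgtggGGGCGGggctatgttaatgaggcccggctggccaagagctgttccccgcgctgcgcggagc
GPAM, chr10:112183766-112184015, minus strand: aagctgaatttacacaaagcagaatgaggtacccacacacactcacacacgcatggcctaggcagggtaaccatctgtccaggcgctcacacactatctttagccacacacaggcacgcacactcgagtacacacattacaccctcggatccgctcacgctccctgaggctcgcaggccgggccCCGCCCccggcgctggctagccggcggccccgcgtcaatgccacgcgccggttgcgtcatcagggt
CIDEC, chr3:9878813-9879062, minus strand: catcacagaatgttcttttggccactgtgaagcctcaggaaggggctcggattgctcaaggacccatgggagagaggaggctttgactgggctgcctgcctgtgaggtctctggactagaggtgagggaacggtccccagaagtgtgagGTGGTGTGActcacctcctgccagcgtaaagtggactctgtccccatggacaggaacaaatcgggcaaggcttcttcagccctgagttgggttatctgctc
PNPLA2, chr11:818664-818913, plus strand: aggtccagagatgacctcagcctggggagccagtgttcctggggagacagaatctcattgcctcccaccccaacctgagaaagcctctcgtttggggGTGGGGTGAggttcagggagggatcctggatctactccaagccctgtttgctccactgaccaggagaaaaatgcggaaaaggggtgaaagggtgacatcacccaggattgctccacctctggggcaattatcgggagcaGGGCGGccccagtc

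The sterol element core was in 2 of the 56 windows, 3.57%, against 1.13% of all 35116 windows of the table. Both genes that carry it had values above 0, PNPLA2 at 0.04 and CIDEC at 0.28. In CIDEC the match begins 101 bases before the start and in PNPLA2 153 bases before it. A GC box was in 39 of the 56 windows, 69.6%, against 45.0% of all windows. MLXIPL had 4 GC boxes in the stretch shown and the downstream start of ACSS2 had 3. The CCAAT box was in 22 of the 56 windows, 39.3%, against 34.6% of all windows, and the E-box in 3, 5.36% against 7.26%. In the stretches shown, a CCAAT box appears only in the upstream window of ACSS2.

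Other genes of the pathway were listed by role beside the 43, also with earlier results of these data known. Of 69 such genes 61 were measured, and 38 lay below 0 (62.3%, against 47.5% of all genes), with a median of -0.09. At least 1.5-fold lower were 5 of them (8.20%, against 2.38% of all genes) and 1 was at least 1.5-fold higher (2.63% of all genes). By role, 10 of 13 genes of SREBP processing and lipogenic regulation lay below 0 (median -0.14), as did 5 of 7 of citrate and NADPH supply (median -0.11), 6 of 7 of fatty acid activation (median -0.40) and 6 of 10 partners of elongation and desaturation (median -0.09). Further genes of glycerolipid assembly had 7 of 12 below 0 (median -0.01) and further droplet proteins and lipases 4 of 12 (median 0.05).

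**Figure D4:**
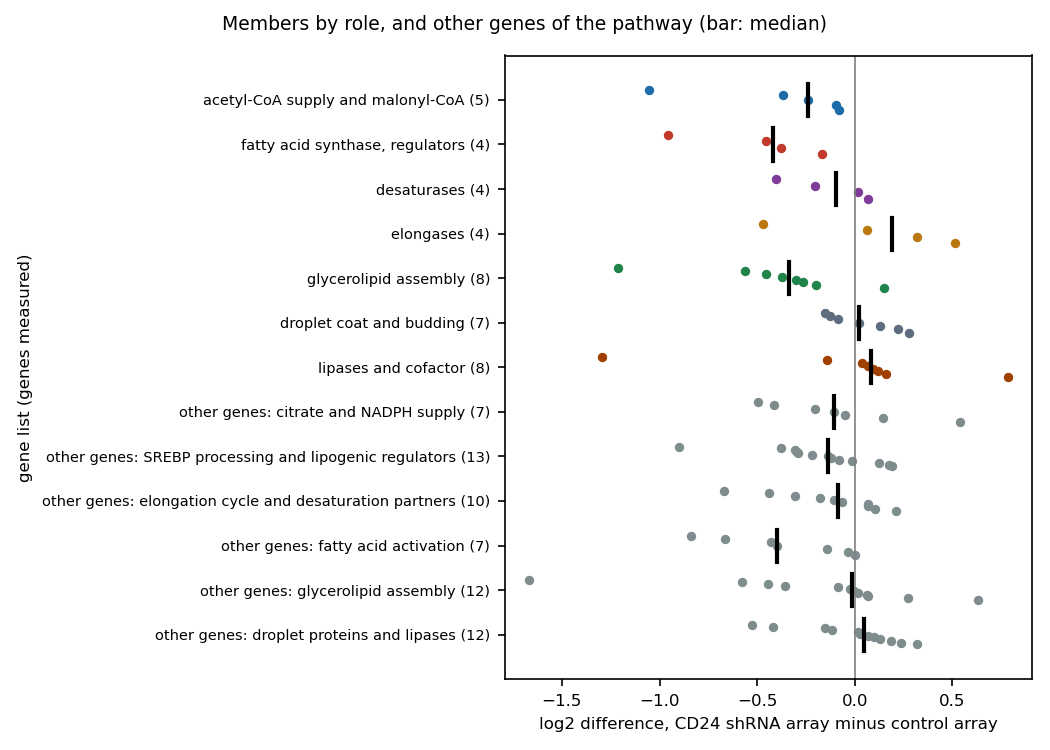
Gene values (horizontal axis, log2 difference, CD24 shRNA minus control) by role. Coloured points are the 40 genes in 7 roles, grey points 61 other genes of the pathway in 6 roles, and black bars are medians. Among the coloured roles the bars of acetyl-CoA supply, synthase and regulators, and glycerolipid assembly lie between -0.42 and -0.24. Among the grey roles fatty acid activation lies at -0.40 and glycerolipid assembly at -0.01, while the bars of droplet proteins and lipases of either colour lie at or above 0.02.

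The 6 other genes with the largest values were MOGAT1, INSIG1, ACSL4, TECR, ACSL5 and CDS1. MOGAT1, a monoacylglycerol acyltransferase, was 3.18-fold lower on its 1 probe set (-1.67). INSIG1, which holds SREBP precursors in the endoplasmic reticulum and is itself an SREBP target, was 1.87-fold lower (-0.90 ± 0.38, SD, 3 probe sets). ACSL4 and ACSL5, which activate fatty acids to acyl-CoA, were 1.79-fold lower (-0.84 ± 0.19, SD, 3 probe sets) and 1.58-fold lower (-0.66 ± 0.50, SD, 2 probe sets).

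TECR, the reductase of the elongation cycle, was 1.59-fold lower (-0.67 ± 0.22, SD, 2 probe sets). CDS1, which diverts phosphatidate to phospholipids, was 1.55-fold higher (0.63 ± 0.56, SD, 4 probe sets). Of its probe sets 1 lay at -0.20 and was placed below 4. The others lay above 0.7 and were not placed below 4.

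Markers of cell types were described beside these values. Of 11 measured hepatocyte markers 8 lay below 0, against 47.5% of all genes (median -0.11, from -0.94 to 0.59). Only differences are in the table, so the presence of these markers could be read just in part: the dimmer array was placed below 4 on 1 of their 27 probe sets, against 8 of 9 for adipocyte markers. The adipocyte markers had a median of -0.05 (7 genes, from -0.90 to 0.16). Their lowest was PCK1, whose 1 probe set was the only one of the 9 not placed below 4. Macrophage markers had a median of 0.18 (8 genes, from -0.37 to 0.29). Stellate cell and fibroblast markers had a median of 0.04 (13 genes, from -0.26 to 2.67), with LRAT tied between the arrays. COL3A1, TAGLN and LUM were at least 2-fold higher, 3 of 13 genes, against 0.632% of all genes. Without multi-transcript probe sets they lay at 0.44, 0.05 and 0.13, and 0 of the 11 genes left were at least 2-fold higher, against 0.579% of all genes. The probe sets left out lay at 3.67, 3.41 and 3.78 for COL3A1, 3.93 and 4.02 for TAGLN and 2.12 for LUM. Of those left out, the COL3A1 ones at 3.67 and 3.41 and the LUM one were placed below 4. The COL3A1 one at 3.78 and the TAGLN ones were not. The COL3A1 and LUM probe sets left in that setting were all placed below 4, and the TAGLN one was not. In this list the dimmer array was placed below 4 on 18 of 45 probe sets. The part of any of these markers in the lipid genes was not tested.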

How the data were processed

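Total RNA of 2 Huh7 cultures was labelled with biotin and measured on 1 array each. The authors deposited log2 values. Per the submitters' processing notes the method was RMA, which corrects background, normalises arrays by quantiles and summarises probes. No software or later step is given in the sources used here. The 2 values of every probe set sum to 0 within 1e-06, so each probe set had been centred on its arrays and levels are absent.

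Of 54675 probe sets, 62 controls were left out, and 41091 naming 1 gene in GEO's platform annotation were used, 1801 naming several and 11721 naming none here. Gene values are means over probe sets. Folds of 1.5 and 2 are descriptive thresholds, since 1 array per group allows no test. Numbers in single precision have finer binary steps below 4, and steps that fine in the deposited digits placed the dimmer array of 15652 probe sets below 4 (log2). Other dim probe sets are missed. Calculations were checked on simulated data and run in Python 3.11.15 with pandas 2.3.3 and numpy 2.4.6.

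Named genes are all 43 members. Shown by probe set on each array are those at least 1.5-fold different and ACLY, ACACA, FASN, SCD, SREBF1, MLXIPL, DGAT1, DGAT2 and PLIN2. CD24, INSIG1 and the 6 largest of the other pathway genes were added. Members and lists were chosen with earlier results of these data known. Alternatives tried were other ways to combine or leave out probe sets, centring, scaling on hybridisation controls and a threshold of 3-fold. Another counted probe sets that name a member beside a microRNA.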

Additional observations from a re-analysis of the deposited data

How the results depend on the processing

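With 1 array per group, no value below has a replicate check, and the number of arrays and the absent levels limit every statement. PNPLA3 ranged from -1.34 to -1.18, GPAM from -1.55 to -1.10, ACSS2 from -1.05 to -0.94, MLXIPL from -0.96 to -0.85 and MGLL from 0.79 to 0.90 over the alternatives that gave them a value. ACSS2 and MLXIPL had no value without multi-transcript probe sets (suffix _s_at or _x_at). In that setting 27 genes remained, with a median of -0.015, 15 of them below 0 (47.7% of all genes) and 2 at least 1.5-fold lower (2.53% of all genes). It left 12 synthesis and assembly genes and 3 droplet and lipase genes below 0, and shorter lists are part of its construction. With the largest probe set per gene the median of the 40 genes was -0.25 and 8 were at least 1.5-fold lower, against 5.55% of all genes in that setting. Scaled on the hybridisation controls the median was -0.021, with the median of all genes at 0.11 and ACSS2 no longer at 2-fold. Among the 30 genes with several probe sets, a setting added after seeing the data, 2 were at least 1.5-fold lower. The share was 1.69% over every gene with several probe sets. There 3 of 10 droplet and lipase genes lay below 0, against 48.4% of every gene with several probe sets. At 3-fold, 0 of the 40 genes passed. Apart from these settings, counts stayed within 1.5 times the reported ones. No paired analysis was possible because each group holds 1 array. A filter on measured level was not run, since the table holds none.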
